A study of Mus musculus with 12 samples.

Results

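The 10 Bcl2 family genes examined here are Bcl2, Bcl2l1 and Mcl1 (pro-survival), Bax and Bak1 (effectors), and Bid, Bcl2l11, Bbc3, Pmaip1 and Bad (BH3-only). They were selected by name. All 10 had an entry among the 38561 genes counted in isolated mouse pancreatic islets, and all 10 were among the 15352 genes that passed the filter on low counts. The islets came from 12 male mice aged 11 weeks, 3 in each of 4 groups, with 1 library per mouse. NOD_insHEL mice have the non-obese diabetic background NOD/LtJ and the transgene B6-Tg(ILK3mHEL)3Ccg, and NOD mice have that background without the transgene. B10_insHEL mice have the background C57BL/10SnSg with the transgene, and B10 mice have it without. The transgene, insHEL, drives hen egg lysozyme from the insulin promoter and is thus meant for beta cells. Common to all groups, the B10 mice included, are the Rag allele 129S7(B6)-Ragtm1Mom, given as Rag-/-, the MHC k haplotype written BR-H2k, and normal blood glucose. They model islets without mature B and T cells, and the study asked how NOD islets differ when no immune infiltrate is present.

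Proteins of the Bcl2 family control whether mitochondria release cytochrome c and start apoptosis. BAX and BAK form pores in the outer mitochondrial membrane, the pro-survival proteins BCL2, BCL-XL (from Bcl2l1) and MCL1 hold them in check, and BH3-only proteins sense damage and either neutralise the pro-survival proteins or activate the effectors. In beta cells the BH3-only proteins BIM (from Bcl2l11), PUMA (from Bbc3) and BID are known for their parts in death from cytokines, endoplasmic reticulum stress and death receptors.

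Library totals ran from 2212062 counts (NOD_insHEL replicate 3) to 21138456 (B10 replicate 2), so that 3 counts correspond to 1.36 CPM in the shallowest library and to 0.142 CPM in the deepest. The labels give islet numbers of 114, 94 and 77 for NOD_insHEL replicates 1 to 3 and 53, 137 and 108 for NOD. For B10_insHEL they are 44, 116 and 78, and for B10 74, 50 and 20. The part of islet number in the levels was not tested. Levels are given as CPM, the count relative to the TMM-scaled library size. The labels name no Rag paralog: Rag2 had 0 counts in all 12 libraries and Rag1 had 13 to 141, counts that do not check the allele. Insulin Ins1 was at 76055 to 83102 CPM in NOD_insHEL, 71079 to 75135 CPM in NOD, 46840 to 75574 CPM in B10_insHEL and 42936 to 44603 CPM in B10. The summed level of 20 acinar genes, most of them digestive enzymes, was 151 to 194 CPM in NOD_insHEL, 212 to 352 CPM in NOD, 193 to 2633 CPM in B10_insHEL and 3715 to 4678 CPM in B10, the high B10_insHEL library being replicate 2. The transcription factor gene Bhlha15 alone gave 59.6 to 92.7 CPM of the sum in NOD_insHEL. Cd3e, which defines T cells, had 0 counts in all libraries. In the descriptions, the 3 B10 libraries bear numbers from a range apart from that of the other 9. Should the range mark a preparation, it and the B10 group cannot be told apart, and NOD_insHEL against B10_insHEL is the strain comparison that lies within 1 range of numbers.

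Per kilobase of exon, Mcl1 transcripts were the most abundant of the family in every group. Their level was 37.5 ± 2.88 CPM per kb in NOD_insHEL, 37.1 ± 1.98 in NOD, 44.0 ± 5.81 in B10_insHEL and 40.4 ± 2.96 in B10 (SD, n = 3 each, here and below). The pore-forming effector Bax came second, with 18.2 ± 5.89, 23.0 ± 4.92, 16.8 ± 2.30 and 15.5 ± 1.58 CPM per kb in NOD_insHEL, NOD, B10_insHEL and B10. Bcl2l1 followed, at 8.43 ± 0.202 CPM per kb in NOD_insHEL, 9.10 ± 0.603 in NOD, 9.98 ± 2.30 in B10_insHEL and 9.23 ± 0.409 in B10. In none of the 4 groups did the libraries of Mcl1, Bax and Bcl2l1 overlap in CPM per kb. Bcl2 itself, the founding member of the family, was at 1.02 to 1.23 CPM per kb (range of the group means), below both other pro-survival genes, and Pmaip1, which encodes NOXA, an antagonist of MCL1, was at 0.546 to 0.821 CPM per kb.

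The middle of the order differed in detail between groups. In NOD the order after Bcl2l1 was Bbc3 (6.12 ± 0.873 CPM per kb), Bad (5.56 ± 0.861), Bak1 (5.08 ± 0.996) and Bcl2l11 (3.20 ± 0.396), and the libraries of Bbc3 and Bad, and of Bad and Bak1, overlapped. In B10 the order was Bad (4.49 ± 0.650), Bak1 (3.63 ± 0.179), Bbc3 (2.54 ± 0.758) and Bcl2l11 (2.38 ± 0.194), where Bbc3 and Bcl2l11 overlapped. Bbc3 ranked 6th in both transgenic groups, at 3.92 ± 0.653 CPM per kb in NOD_insHEL and 2.90 ± 0.949 in B10_insHEL. Bid was 10th in NOD (0.756 ± 0.403 CPM per kb) and 8th in B10 (1.87 ± 0.241).

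As a share of the summed CPM per kb of the 10 genes, the pro-survival class held 51.6% ± 1.35 in NOD and 62.1% ± 3.90 in B10. With the transgene it held 57.1% ± 6.33 in NOD_insHEL and 63.0% ± 5.43 in B10_insHEL. The 3 NOD libraries (50.1 to 52.8%) lay below the 3 B10 libraries (59.8 to 66.6%), while NOD_insHEL (51.7 to 64.1%) and B10_insHEL (58.2 to 68.9%) overlapped. The effectors held 30.5% ± 3.34 in NOD and 23.4% ± 2.13 in B10, and the BH3-only class held 18.0% ± 2.01 in NOD and 14.5% ± 1.94 in B10. These shares are descriptions with no test, and they add transcripts of different genes, not proteins. The share of a class also depends on the level of the others. Mcl1, Bcl2l1 and Bcl2 were at 37.1, 9.10 and 1.13 CPM per kb in NOD, against 40.4, 9.23 and 1.02 in B10. Bax and Bak1 were at 23.0 and 5.08 in NOD, against 15.5 and 3.63 in B10.

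**Figure D1:**
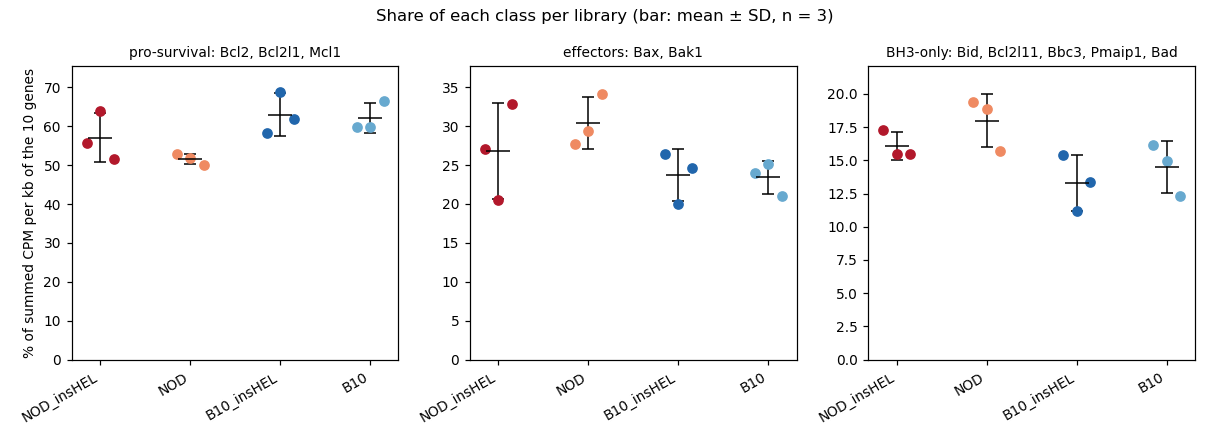
Share of the summed CPM per kb of the 10 genes held by each class (y axis, %), 1 point per library, with mean ± SD per group. The pro-survival points of NOD (50.1 to 52.8%) sit below those of B10 (59.8 to 66.6%), and the transgenic groups overlap.

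Without the transgene, NOD islets had more transcript of both effectors and of 2 BH3-only genes than B10 islets, and less Bid. In the quasi-likelihood test of edgeR with Benjamini-Hochberg adjustment over all genes, 4 of the 10 genes were higher (Bbc3, Bax, Bak1 and Bcl2l11), 1 was lower (Bid) and 5 did not pass at the threshold of 0.05. Of all 15352 genes 28.4% were called in this comparison, 13.5% higher and 14.9% lower. The median log2 difference of the 10 genes was 0.37, against 0.03 over all genes. None of the 3 pro-survival genes passed. Libraries of NOD and B10 did not overlap for 5 of the 10 genes, the same 5 as called, a share close to the 47.5% of all genes.

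The promoter windows of 4 of these 5 genes are shown because the data bear on their transcripts; those of Bbc3, Bax and Bcl2l11 belong to genes higher in NOD and that of Bid to the gene that was lower. Each runs from 250 bases before to 50 after a RefSeq start (build GRCm38.p6), 5′ to 3′ on the gene's strand. Capitals mark matches on either strand to the GC box GGGCGG, the E-box CACGTG, the FOXO motif GTAAACA and the p53 decamer, and adjoining or overlapping GC boxes form 1 run. Where a gene had several windows, the one whose start lay nearest an annotated GENCODE transcript start is shown, and the first of equals. The windows are chr7:16310181-16310480 (plus strand) for Bbc3, chr7:45466849-45467148 (minus) for Bax, chr2:128125788-128126087 (plus) for Bcl2l11 and chr6:120916775-120917074 (minus) for Bid.
Bbc3: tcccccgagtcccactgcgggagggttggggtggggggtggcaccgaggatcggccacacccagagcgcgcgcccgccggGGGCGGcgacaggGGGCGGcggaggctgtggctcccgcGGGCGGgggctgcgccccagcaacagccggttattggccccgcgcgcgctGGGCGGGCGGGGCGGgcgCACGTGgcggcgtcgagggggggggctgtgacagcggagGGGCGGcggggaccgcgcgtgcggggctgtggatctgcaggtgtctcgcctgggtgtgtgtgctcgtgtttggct
Bax: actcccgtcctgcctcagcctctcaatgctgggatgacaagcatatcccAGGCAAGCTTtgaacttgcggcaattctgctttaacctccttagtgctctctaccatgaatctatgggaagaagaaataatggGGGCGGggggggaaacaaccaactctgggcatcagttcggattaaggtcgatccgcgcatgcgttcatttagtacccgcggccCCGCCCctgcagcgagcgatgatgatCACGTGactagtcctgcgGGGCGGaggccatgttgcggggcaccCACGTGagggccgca
Bcl2l11: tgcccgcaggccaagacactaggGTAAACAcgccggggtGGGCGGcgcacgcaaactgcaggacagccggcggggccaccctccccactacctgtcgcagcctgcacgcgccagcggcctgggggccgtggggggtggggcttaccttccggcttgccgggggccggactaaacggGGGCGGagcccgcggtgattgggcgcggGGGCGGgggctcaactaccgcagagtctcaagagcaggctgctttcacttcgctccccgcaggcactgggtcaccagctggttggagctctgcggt
Bid: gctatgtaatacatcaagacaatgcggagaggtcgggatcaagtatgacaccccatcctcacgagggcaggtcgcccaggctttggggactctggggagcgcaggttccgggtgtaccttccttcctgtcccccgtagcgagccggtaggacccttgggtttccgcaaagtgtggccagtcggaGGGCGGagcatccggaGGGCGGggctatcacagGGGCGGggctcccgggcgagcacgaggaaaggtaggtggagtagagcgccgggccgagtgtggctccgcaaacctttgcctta
The Bbc3 window held 7 GC boxes and 1 E-box, the Bax window 3 GC boxes, 2 E-boxes and 1 p53 decamer, the Bcl2l11 window 3 GC boxes and 1 FOXO motif, and the Bid window 3 GC boxes. The 2 Bbc3 windows not shown held 5 and 4 GC boxes, and 1 of them a FOXO motif; the Bcl2l11 window not shown held 3 GC boxes and no FOXO motif. The window of Bak1 held none of these letters, nor did any printed window hold the C/EBP-ATF motif TGATGNAA. Of 32851 RefSeq windows of this length, 35.7% held a GC box, 7.15% the E-box, 3.65% the FOXO motif, 3.97% the C/EBP-ATF motif and 8.36% the p53 decamer. RefSeq windows matched 9 of the 10 genes (15 windows), and 10 of the 15 held a GC box. A match is a run of letters and was not tested as a site.

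Bbc3 (ENSMUSG00000002083, chromosome 7, 16308393 to 16318205, plus strand, GRCm38) encodes PUMA, a BH3-only protein that binds all pro-survival relatives and is a p53 target. It had 12.2, 15.1 and 11.7 CPM in NOD, against 6.14, 6.49 and 3.54 CPM in B10. Every NOD library was above every B10 library. The log2 difference was 1.26 (SE 0.25, 95% interval 0.74 to 1.78, adjusted p = 8.22e-04), a 2.40-fold higher level. The call was kept when each of the 12 libraries was left out in turn (adjusted p up to 0.00780). The acinar score, the mean log2 CPM of the acinar genes, was 2.81 to 3.43 in NOD and 6.83 to 7.18 in B10. Adjusted for that score, the difference in Bbc3 was 0.62 and did not pass (adjusted p = 0.328).

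Bax (ENSMUSG00000003873, chromosome 7, 45461697 to 45466898, minus strand) encodes the cytosolic effector that moves to mitochondria when activated. It had 29.7, 34.1 and 44.8 CPM in NOD, against 25.5, 26.2 and 21.5 CPM in B10. The NOD libraries were all higher, by 0.56 on the log2 scale (SE 0.18, 95% interval 0.17 to 0.94, adjusted p = 0.0297). Bak1 (ENSMUSG00000057789, chromosome 17, 27019810 to 27029009, minus strand) encodes the effector that resides on mitochondria. It had 14.9, 10.4 and 11.4 CPM in NOD, against 8.54, 9.24 and 8.45 CPM in B10. Its difference of 0.49 (SE 0.18, 95% interval 0.11 to 0.86) lay at the threshold (adjusted p = 0.0496). Bcl2l11 (ENSMUSG00000027381, chromosome 2, 128126038 to 128162547, plus strand) had 28.8, 25.7 and 22.5 CPM in NOD, against 18.7, 20.8 and 17.7 CPM in B10, a difference of 0.43 (SE 0.15, 95% interval 0.12 to 0.75, adjusted p = 0.0366). The groups did not overlap for either gene.

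These 3 calls lay near the threshold. Leaving out NOD replicate 2 or 3, or any B10 library, ended the call of Bax (adjusted p up to 0.168), at differences of 0.39 (without NOD replicate 3) to 0.60. That of Bak1 ended without NOD replicate 1 or 3, any B10 library, NOD_insHEL replicate 1 or B10_insHEL replicate 3 (up to 0.292), at 0.29 (without NOD replicate 1) to 0.53, and under 5 other settings, among them DESeq2 (0.47, 0.0645). That of Bcl2l11 ended without NOD replicate 1 or 2 or any B10 library (up to 0.173), at 0.32 (without NOD replicate 1) to 0.48. Most of these differences stayed about as large as with all libraries. Adjusted for the acinar score, Bcl2l11 differed by 0.74 (adjusted p = 0.0357), while Bax (0.36, 0.488) and Bak1 (0.49, 0.328) did not pass. Of 19 acinar genes tested, 13 were lower in NOD than in B10 and none was higher. Endothelial markers moved in the same comparison: 7 of 8 were higher in NOD and none was lower, with a summed level of 1224 to 1728 CPM in NOD and 894 to 978 CPM in B10. Ins1 was also higher in NOD than in B10 (0.75, adjusted p = 6.27e-04). Beta cell markers went both ways, with 2 of 10 higher in NOD and 3 lower. Their median log2 difference was 0.03, as over all genes. The part of endothelial, acinar or beta cell RNA in these differences was not tested, and in whole islets fewer cells of a type and less RNA per cell cannot be told apart.

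Bid (ENSMUSG00000004446, chromosome 6, 120891930 to 120916853, minus strand) encodes the BH3-only protein that caspase-8 cleaves to link death receptors to mitochondria. It had 2.06, 1.67 and 4.32 CPM in NOD, against 7.43, 6.71 and 5.72 CPM in B10. The counts behind these levels were low, 23 to 30 in the NOD libraries and 84 to 149 in the B10 libraries. The log2 difference was -1.39 (SE 0.35, 95% interval -2.11 to -0.66, adjusted p = 0.00561), and it was called without each library in turn (adjusted p up to 0.0441). With the acinar score as a covariate, Bid differed by -1.74 and missed the threshold (adjusted p = 0.0630). Bid and Bcl2l13, a mitophagy receptor gene of the same family, overlap by 628 exonic bases on opposite strands, and the strand setting of the counting is not given in the sources used here, so their reads may not be fully separated. Bcl2l13 did not pass in the same comparison (-0.10, adjusted p = 0.535). Its mean over the 12 libraries was 63.6 CPM, far above the level of Bid, and the part of its reads in the Bid counts was not tested. Exons on opposite strands also overlap for Bak1, which shares 437 bases with Ggnbp1 (-0.12, adjusted p = 0.619). Bcl2 likewise shares 558 with D630008O14Rik.

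None of the pro-survival genes passed, and Mcl1 gave the narrowest interval of the 10 genes. Mcl1 had 126, 120.1 and 134 CPM in NOD, against 134, 131 and 149.9 CPM in B10, with a log2 difference of -0.13 (95% interval -0.36 to 0.10, adjusted p = 0.419). Bcl2l1 had 43.8, 42.9 and 38.6 CPM in NOD, against 40.8, 41.7 and 44.4 CPM in B10, a difference of -0.02 (95% interval -0.29 to 0.26, adjusted p = 0.942). Bcl2 had 11.0, 10.2 and 9.94 CPM in NOD, against 10.9, 9.55 and 7.57 CPM in B10, a difference of 0.15 (95% interval -0.22 to 0.53, adjusted p = 0.553). The groups overlapped for all 3. Of the BH3-only genes that did not pass, Bad, whose product is held in the cytosol when phosphorylated, differed by 0.31 (95% interval -0.07 to 0.69, adjusted p = 0.208). Its exons overlap those of Gpr137 by 524 bases on the opposite strand, and Gpr137 was higher in NOD (0.41, adjusted p = 0.0496). Pmaip1, with 12 to 35 counts per library in these 2 groups, differed by 0.60 with a wide interval of -0.19 to 1.39 (adjusted p = 0.251).

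**Figure D2:**
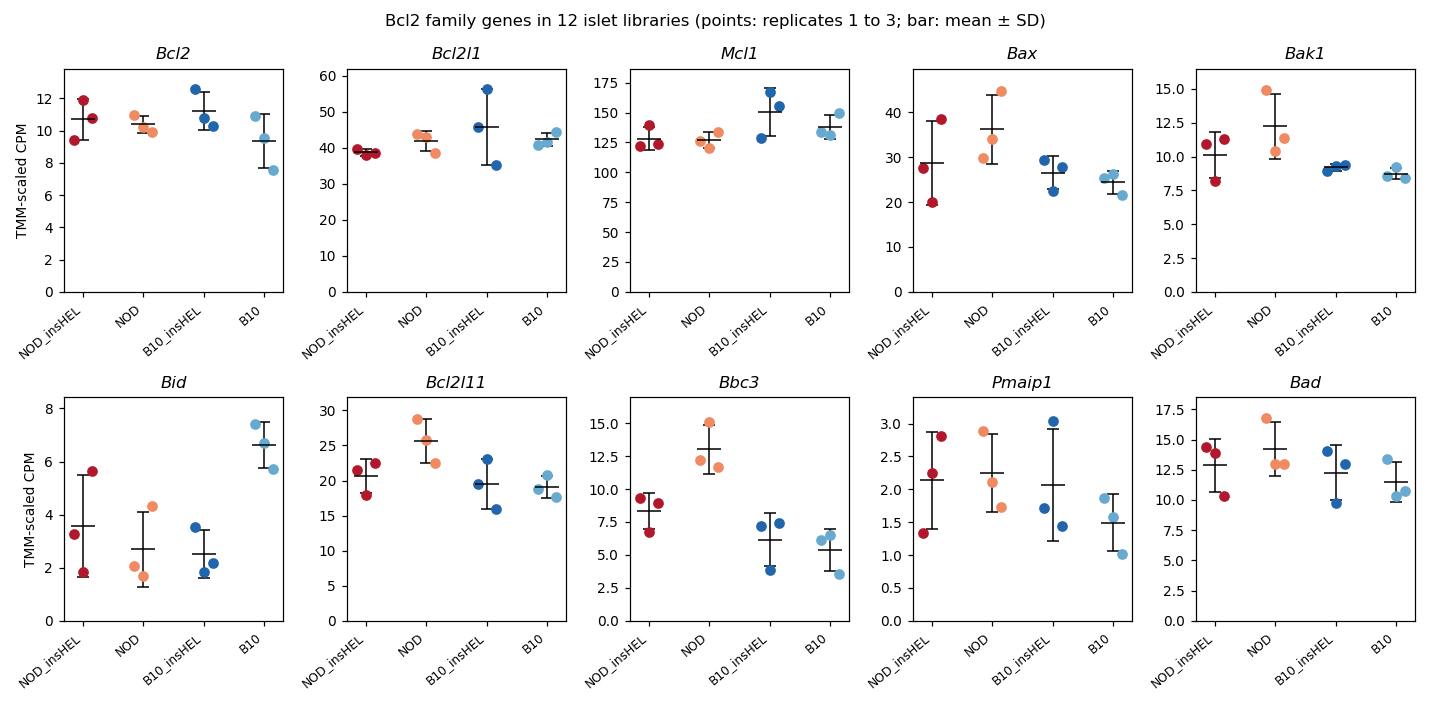
TMM-scaled CPM (y axis) of each gene in 12 libraries, with NOD_insHEL, NOD, B10_insHEL and B10 from left to right; points are replicates 1 to 3 and bars are mean ± SD. Bbc3 is at 11.7 to 15.1 CPM in NOD and 3.54 to 6.49 CPM in B10, while Bid stands apart in B10 at 5.72 to 7.43 CPM.

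Between the transgenic groups none of the 10 genes passed in edgeR, none had an unadjusted p under 0.05, none passed in DESeq2, and no gene had separate libraries. Of all genes 12.1% were called in this comparison (5.55% higher, 6.50% lower), 26.0% had an unadjusted p under 0.05 and 27.0% had separate libraries. The median log2 difference of the 10 genes was 0.05, against -0.01 over all genes. Bbc3 had 9.30, 6.73 and 8.92 CPM in NOD_insHEL, against 7.20, 3.83 and 7.43 CPM in B10_insHEL, a difference of 0.43 (95% interval -0.15 to 1.02, adjusted p = 0.348). The interval covers a difference of the size of a doubling, so the comparison bounds Bbc3 loosely. Bax differed by 0.05 (95% interval -0.37 to 0.46), Bak1 by 0.11 (-0.30 to 0.53) and Bcl2l11 by 0.06 (-0.28 to 0.40). Bid had 3.26, 1.85 and 5.63 CPM in NOD_insHEL, against 3.55, 1.83 and 2.17 CPM in B10_insHEL, with a difference of 0.33 (95% interval -0.53 to 1.18, adjusted p = 0.670). Mcl1 had 122, 139.6 and 123 CPM in NOD_insHEL, against 129, 168 and 155 CPM in B10_insHEL (-0.23, 95% interval -0.46 to 0.01, adjusted p = 0.205). Bcl2l1 had 39.7, 37.9 and 38.5 CPM in NOD_insHEL, against 45.9, 56.3 and 35.2 CPM in B10_insHEL (-0.24, adjusted p = 0.290). The NOD_insHEL libraries lay close together for Bcl2l1 and the B10_insHEL libraries far apart, and the difference passed without B10_insHEL replicate 3 (-0.40, adjusted p = 0.0486). The endothelial sum was 935 to 1116 CPM in NOD_insHEL and 1043 to 1114 CPM in B10_insHEL. Of 8 endothelial markers 2 were lower in NOD_insHEL at the threshold of 0.05 and none was higher.

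Averaged over the transgene, with 6 libraries on each side, Bbc3 alone passed, 1 of 10 genes against 33.3% of all genes (15.7% higher, 17.6% lower). Its level was 6.73 to 15.1 CPM (median 10.5) in the 6 libraries of NOD background and 3.54 to 7.43 CPM (median 6.32) in the 6 of B10 background, and the 2 sides overlapped. The log2 difference was 0.85 (SE 0.19, 95% interval 0.46 to 1.24, adjusted p = 0.00150). It was called without each library in turn (adjusted p up to 0.00983) and not after adjustment for the acinar score (0.44, adjusted p = 0.266). Of the other 9 genes, 4 had an unadjusted p under 0.05: Mcl1 (-0.18), Bax (0.30), Bak1 (0.30) and Bcl2l11 (0.25), with adjusted p of 0.0897 to 0.0942. Of all genes 43.1% had an unadjusted p that low.

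**Figure D3:**
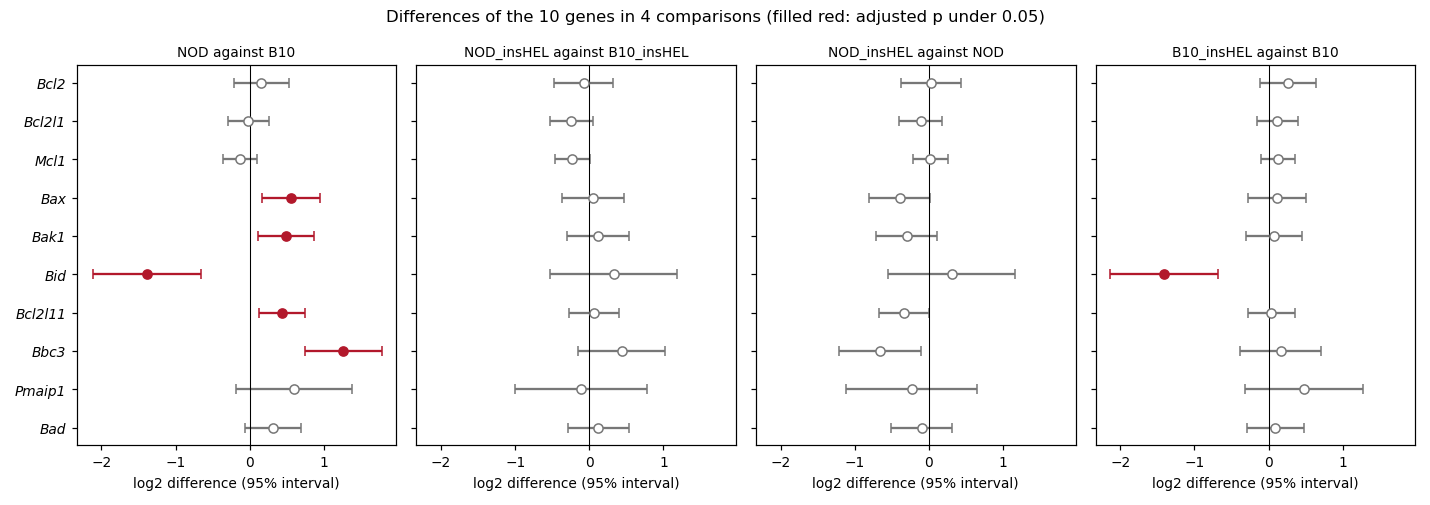
Log2 difference with its 95% interval (x axis) of the 10 genes (rows) in 4 comparisons; filled red points have an adjusted p under 0.05. In NOD against B10, 4 filled points lie above 0 and that of Bid below it. Bid is also lower in B10_insHEL against B10, and no gene passes in the other panels.

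Of the 10 genes, Bbc3 was the one called in the averaged difference, and the annotated genes with the pattern most like it over the 12 libraries were sought. The measure was the root mean square difference between mean-centred log2 CPM, whose median over all annotated genes was 0.65. Mgll (0.25), which encodes monoglyceride lipase, Pmvk (0.25), an enzyme of the mevalonate pathway, and Ankrd54 (0.26), an ankyrin repeat gene, were nearest. Mgll had 53.8 ± 2.95 CPM in NOD_insHEL, 80.0 ± 17.0 in NOD, 40.9 ± 8.44 in B10_insHEL and 31.3 ± 2.84 in B10. Pmvk had 18.7 ± 1.61, 23.7 ± 1.81, 14.4 ± 4.25 and 13.9 ± 4.10 CPM in the same groups. Ankrd54 had 87.9 ± 4.35, 109 ± 2.39, 47.4 ± 9.71 and 44.3 ± 5.17 CPM. NOD had the highest mean for each, as it had for Bbc3. Because these genes were chosen for their likeness to Bbc3 in the same libraries, the shared order is no separate result.

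In NOD islets insHEL gave no call among the 10 genes in edgeR or DESeq2, where 7.06% of all genes were called (3.88% higher, 3.18% lower). An unadjusted p under 0.05 was found for 2 of the 10 genes and 23.5% of all genes. Bbc3 had 9.30, 6.73 and 8.92 CPM in NOD_insHEL, against 12.2, 15.1 and 11.7 CPM in NOD. The libraries did not overlap, as for 26.6% of all genes, but the difference of -0.66 (SE 0.27, 95% interval -1.22 to -0.11) missed the threshold (adjusted p = 0.132). Adjusted for the acinar score it was -0.90 and passed (adjusted p = 0.0398). Bcl2l11 had 21.5, 17.9 and 22.5 CPM in NOD_insHEL, against 28.8, 25.7 and 22.5 CPM in NOD (-0.34, SE 0.16, adjusted p = 0.210). Bax (-0.39, adjusted p = 0.236) and Bak1 (-0.30, adjusted p = 0.380) did not pass either. Of 8 endothelial markers 5 were lower in NOD_insHEL than in NOD and none was higher, with sums of 935 to 1116 CPM in NOD_insHEL and 1224 to 1728 CPM in NOD, and their part in these values was not tested.

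In B10 islets Bid fell with insHEL, the 1 call among the 10 genes where 6.85% of all genes were called (4.09% higher, 2.76% lower). It had 3.55, 1.83 and 2.17 CPM in B10_insHEL, against 7.43, 6.71 and 5.72 CPM in B10. The groups did not overlap, as for 26.7% of all genes. The log2 difference was -1.41 (SE 0.35, 95% interval -2.14 to -0.69, adjusted p = 0.0179). The call ended without B10_insHEL replicate 3, B10 replicate 1 or B10 replicate 2 (adjusted p up to 0.0778), at differences of -1.41 to -1.32, and also on adjustment for the acinar score (-1.77, adjusted p = 0.160). B10_insHEL replicate 2, whose acinar score of 6.39 was close to those of B10, had 1.83 CPM of Bid, the lowest level of its group. That is a single library with 21 counts of Bid, and the part of acinar RNA in the difference was not tested. This comparison divides the description numbers, so that transgene and a possible preparation cannot be told apart, and it shares the B10 libraries with NOD against B10, where Bid was also lower. The other 9 genes did not pass, Bbc3 for example with 7.20, 3.83 and 7.43 CPM in B10_insHEL, against 6.14, 6.49 and 3.54 CPM in B10 (0.16, 95% interval -0.38 to 0.71, adjusted p = 0.769).

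**Figure D4:**
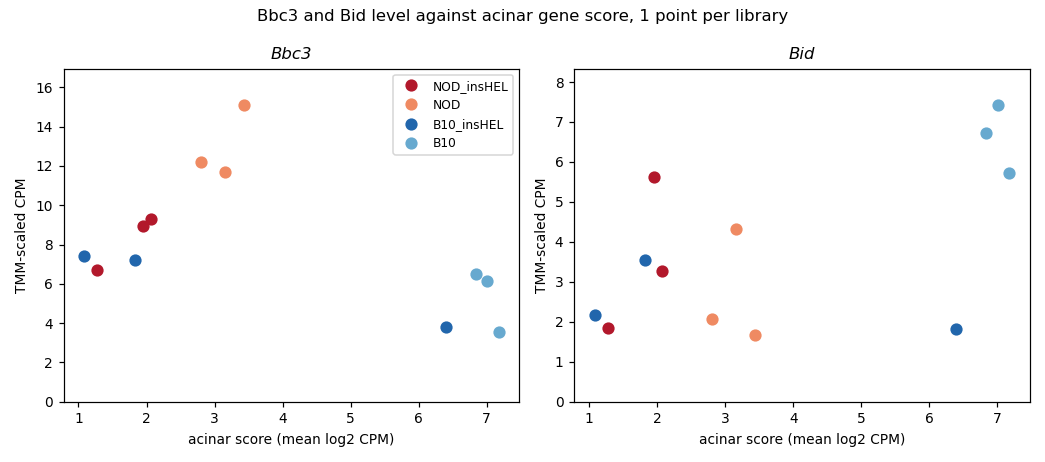
CPM of Bbc3 (left) and Bid (right) against the acinar score (x axis, mean log2 CPM of acinar genes), 1 point per library, coloured by group. The B10 libraries lie at scores of 6.83 to 7.18 with Bid at 5.72 to 7.43 CPM. A single other library, B10_insHEL replicate 2, has a score near these (6.39), with 1.83 CPM of Bid and 3.83 CPM of Bbc3. The part of acinar RNA was not tested.

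The test of the difference itself, the insHEL effect in NOD minus that in B10, called none of the 10 genes in edgeR, and 9 of all 15352 genes (0.0586%). DESeq2 called none either, but gave an adjusted p for 4 of the 10 genes, Bid and Bbc3 not among them. An unadjusted p under 0.05 was found for Bid (interaction 1.71, SE 0.54, 95% interval 0.59 to 2.84, adjusted p = 0.240) and for Bbc3 (-0.83, SE 0.37, 95% interval -1.61 to -0.05, adjusted p = 0.383). Without the filter on low counts the adjusted p of Bid was 0.0372. The strain differences with and without the transgene are thus not shown to differ for Bax, Bak1, Bcl2l11 or Bbc3.

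Around the family, 9 further genes were tested, relatives and genes named after it. In the averaged strain difference 1 was higher and 1 lower, where 33.3% of all genes were called. Of the 16 listed, 14 were in the table. Bmf, a BH3-only gene linked to the cytoskeleton, was lower. It had 5.37, 4.49 and 5.63 CPM in NOD_insHEL, against 6.66, 11.3 and 13.1 CPM in B10_insHEL, without overlap (-1.03, SE 0.26, adjusted p = 0.0115). That call ended without NOD_insHEL replicate 2 or B10_insHEL replicate 3 (adjusted p up to 0.0676). Averaged, Bmf differed by -0.62 (adjusted p = 0.00911), and in NOD against B10 by -0.21 without passing. Adjusted for the acinar score, the averaged difference was -0.56 and did not pass (adjusted p = 0.133). Bnip2, a gene named after BCL2, was the one higher (0.23, adjusted p = 0.0376), a call lost under 11 of 17 alternatives. Bik, another BH3-only gene, was lower in NOD_insHEL than in NOD (-1.51, SE 0.41, adjusted p = 0.0308), with 1.34, 0.660 and 1.41 CPM in NOD_insHEL, against 2.73, 3.34 and 3.31 CPM in NOD, the level of NOD_insHEL replicate 3 being 3 counts. Its call ended without NOD_insHEL replicate 1 or 2 or NOD replicate 2 or 3 (-1.85 to -1.19, adjusted p up to 0.174), and on adjustment for the acinar score (-1.39, adjusted p = 0.0563).

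Downstream of mitochondria, 2 of 14 apoptosome and caspase genes were higher in the averaged strain difference and 1 was lower, a smaller share than the 33.3% of all genes called, with a median of 0.10 against 0.01 over all genes. Dffb, which encodes the nuclease that cuts DNA in apoptotic cells, had 15.1, 14.4 and 23.0 CPM in NOD_insHEL, against 12.2, 6.26 and 7.22 CPM in B10_insHEL. Without the transgene it had 16.2, 22.7 and 22.3 CPM in NOD, against 9.07, 9.01 and 10.0 CPM in B10. It was higher in both strain comparisons, by 0.97 with the transgene (SE 0.24, adjusted p = 0.0101) and by 1.12 without it (SE 0.22, adjusted p = 7.46e-04), and the averaged call (1.04) was kept under all 17 alternatives, while that without the transgene was lost on adjustment for the acinar score (adjusted p = 0.158). Dffa, which encodes the inhibitor and chaperone of that nuclease, was lower in the averaged difference (-0.32, SE 0.09, adjusted p = 0.00794). Casp9, the initiator caspase of the apoptosome, was higher by 0.45 averaged (SE 0.13, adjusted p = 0.0127), and its exons overlap those of the acinar genes Cela2a and Ctrc by 94 bases each on the opposite strand. Adjusted for the acinar score, Dffa (-0.32, adjusted p = 0.111) and Casp9 (0.43, adjusted p = 0.160) no longer passed, at differences about as large. Apaf1, the scaffold of the apoptosome, did not pass (0.12).

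Among 7 caspase inhibitor genes 1 was higher and 1 lower, against 33.3% of all genes called. Nol3, which encodes an inhibitor that binds caspase-8, was higher by 0.45 averaged (SE 0.12, adjusted p = 0.00714), and it overlaps a gene on the opposite strand by 1531 exonic bases. Birc6 was lower (-0.31, SE 0.09, adjusted p = 0.0135). Adjusted for the acinar score, neither passed: Nol3 differed by 0.38 (adjusted p = 0.186) and Birc6 by -0.18 (adjusted p = 0.398). Of 9 death receptor genes Ripk1, a kinase of the TNF receptor complex, was lower (-0.43, SE 0.13, adjusted p = 0.0189), a call that ended without NOD_insHEL replicate 1, NOD replicate 3 or B10_insHEL replicate 2, or when adjusted for the acinar score (-0.08). None of this list was higher.

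Of 12 genes for mitochondrial channels and dynamics, on whose membranes the family acts, 1 was higher and 3 were lower, a share equal to the 33.3% of all genes called. Mfn2, which encodes a fusion protein of the outer membrane, was lower (log2 difference -0.36, SE 0.09, adjusted p = 0.00323), as was Mff, a receptor for the fission machinery (-0.30, SE 0.07, adjusted p = 0.00183). Both were called under all 17 alternatives. Opa1, the fusion protein of the inner membrane, was lower (-0.28, adjusted p = 0.00986) and Fis1, an outer membrane fission gene, was higher (0.41, adjusted p = 0.00254), and neither passed once adjusted for the acinar score. Vdac2, whose channel holds BAK on mitochondria, did not pass (0.17).

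Of 22 regulators of the family tested 1 was higher and 2 were lower in the averaged difference, a smaller share than the 33.3% of all genes called, with a median of -0.13. Usp9x, a deubiquitinase that stabilises MCL1 protein, had 288, 271 and 182 CPM in NOD_insHEL, against 343, 476 and 369 CPM in B10_insHEL. Without the transgene it had 195, 202 and 170.1 CPM in NOD, against 368, 463 and 456 CPM in B10. The libraries of both pairs were separate, with differences of -0.67 (SE 0.16, adjusted p = 0.00817) and -1.18 (SE 0.16, adjusted p = 2.95e-05), and the averaged one was -0.92 (SE 0.11, adjusted p = 4.79e-06). All 3 calls were kept under the 17 alternatives. Ywhaz, whose adaptor protein binds phosphorylated BAD, was higher (0.41, SE 0.09, adjusted p = 8.42e-04, and 0.26 with adjusted p = 0.153 once adjusted for the acinar score), though its transcript has a near-identical copy elsewhere in the annotation. Its call between the transgenic groups (0.38, adjusted p = 0.0435) was kept under 7 of 17 alternatives. Usp9x also shares a near-identical stretch with another counted gene (324 bases, 99.7% identity). The same holds for Ripk1 (511 bases, 100%), Birc6 (328 bases, 100%) and Dffa (640 bases, 96.6%). Atf5 was lower (-0.73, adjusted p = 0.0256), a call lost under 7 of 17 alternatives. Mapk8, which encodes the stress kinase JNK1, was higher in NOD_insHEL than in NOD (0.47, SE 0.11, adjusted p = 0.0181), a call that ended without NOD_insHEL replicate 1 or 2 or NOD replicate 3 (0.42 to 0.50, adjusted p up to 0.104). Trp53 (0.11), Foxo3 (-0.27) and Ddit3 (-0.13), whose products act on Bbc3 or Bcl2l11 transcription, did not pass.

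**Figure D5:**
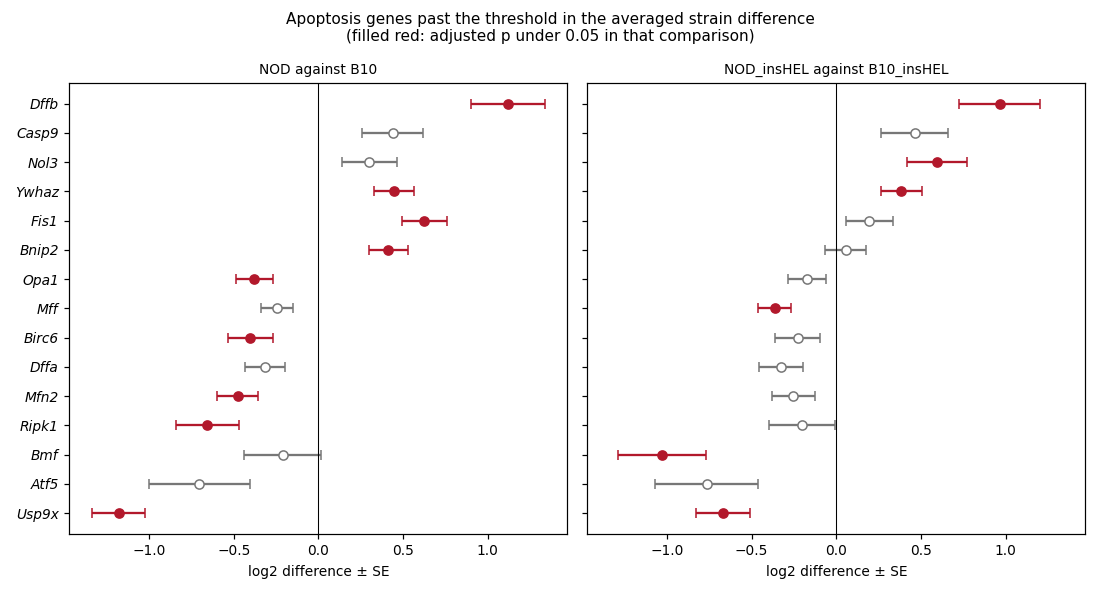
Log2 difference ± SE (x axis) of the 15 listed pathway genes that passed in the averaged strain difference, in NOD against B10 (left) and NOD_insHEL against B10_insHEL (right); filled red points pass in that comparison. Dffb, Usp9x and Ywhaz pass in both panels, Ywhaz in the right one close to the threshold (adjusted p = 0.0435).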

How the data were processed

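Islet RNA of 12 mice was sequenced after a stranded mRNA library kit, and islets were isolated with transcription inhibitors present, per the labels' protocols. The authors deposited raw read counts per Ensembl gene. The submitters' processing notes list the build GRCm38 with cutadapt, TopHat2 2.0.8b, DESeq and HTSeq. Annotation release, strand setting and counting mode are not given in the sources used here. Loss of NOD reads in mapping to GRCm38 was not tested.

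Symbols, coordinates and exon lengths came from GENCODE vM21 (GRCm38) by identifier (95.2% matched). With edgeR 4.0.16 under R 4.3.3, genes that passed filterByExpr were scaled by TMM and 1 model with 4 group means was fitted to all 12 libraries. Tests are robust quasi-likelihood F-tests, two-sided, adjusted by Benjamini-Hochberg over 15352 genes, with a threshold of 0.05. SE is the log2 difference divided by the root of F. Groups hold 3 mice each; library totals limit precision, and floors of 3 counts cover counting error only, since reads carry no molecular identifiers. Replicates differed by more than sampling noise (chi-square per degree of freedom of 4.84 or more). Alternatives were RLE factors, no filter, DESeq2 1.42.0, a replicate block, an acinar covariate (mean log2 CPM, prior count of 2) and leaving out each library. The fit was also run on counts simulated from its own dispersions, with log2 changes of 1 or 2 in NOD. That run held no smaller changes and no acinar or preparation differences, so it does not bear on those. Genes and lists were chosen with earlier results of these data known. Named genes are the 10 members and listed pathway genes past the threshold in the averaged strain difference or for insHEL, up to 6 per list.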

Additional observations from a re-analysis of the deposited data

How the results depend on the processing

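Of 1014 values of the 10 genes in 6 comparisons under 17 alternatives, 976 stayed on their side of the threshold, 30 lost a call and 8 gained one. None past the threshold in either fit changed sign, and 38 values past it in neither did. Most of the 976 were past it in neither fit. In NOD against B10 the call was kept under 16 of 17 alternatives for Bbc3 and for Bid, 12 for Bcl2l11, 11 for Bax and 5 for Bak1. The averaged call of Bbc3 was kept under 16, and that of Bid in B10_insHEL against B10 under 13. The 10 genes gave 1 call in the averaged strain difference, 2 with no filter on low counts (Bax added), 0 when adjusted for the acinar score, and 1 to 2 with a library left out. NOD against B10 gave 5, 1 with the acinar score and 2 to 5 with a library left out. NOD_insHEL against B10_insHEL gave 0, and 0 to 1 with a library left out. NOD_insHEL against NOD gave 0, and 1 with the acinar score. B10_insHEL against B10 gave 1, 0 with the acinar score and 0 to 1 with a library left out, and the interaction gave 0, or 1 with no filter.

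Over all genes, the averaged difference had 5107 calls and 2218 with the acinar score. NOD against B10 had 4353, 1263 with the acinar score and 2868 (without NOD replicate 3) to 4863 with a library left out. NOD_insHEL against NOD had 1084, and 107 to 1522 with a library left out, lowest without NOD_insHEL replicate 1 or 2 or NOD replicate 2 or 3. B10_insHEL against B10 had 1052, 237 with the acinar score and 428 to 1566 with a library left out, lowest without any B10 library or B10_insHEL replicate 3. The interaction had 9, 161 with no filter, 105 in DESeq2, 50 with the acinar score and 2 to 162 with a library left out (162 without B10_insHEL replicate 2, and 2 to 20 without any other). The acinar score of each B10 library was above that of every other library (up to 6.39), so that score and the B10 group are confounded. The causes of these changes were not tested.

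The replicate block, which uses the label's number, moved NOD against B10 from 5 to 4 of the 10 genes, losing Bak1 (0.47, adjusted p = 0.0637), and from 4353 to 4263 of all genes. Same-numbered libraries did not deviate together (r of -0.10 to 0.08 over 18 pairs), and 5 of 12 correlated best with their own number. With the longest transcript as gene length the pro-survival share was 47.2% in NOD and 57.3% in B10. NOD_insHEL replicate 3 had the lowest counts of Bid (12) and of Pmaip1 (6) among the 12 libraries.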
